A study of Mus musculus with 9 samples.

Results

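The Mif, Ddt and Gstt cluster is a group of neighbouring genes on mouse chromosome 10. The genes were chosen by name, as neighbours on the chromosome that had already been seen to differ between the groups, so their own differences are a description. The criteria applied to all genes are used below to count members, and no p-value is given for a member. Of the 9 genes named, 8 were matched to identifiers in a count table of 38293 genes, and Slc2a11 was not matched in the annotation used. The low-count filter kept 7 of the 8, leaving out Derl3, and kept 15318 genes in all.

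The libraries were made from the ventricles of C57B/6J mice at postnatal day 7, as poly(A)-selected, stranded RNA sequencing of total RNA. There were 5 libraries from Arid1a f/f controls, which carry the floxed Arid1a gene without Cre, and 4 from aMHC-Cre;Arid1a f/f animals (cKO). The ARID1A protein belongs to SWI/SNF, a complex that remodels chromatin, and both groups carry the floxed alleles. The αMHC promoter drives Cre in cardiomyocytes, so the other cells of the ventricle keep the gene.

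Macrophage migration inhibitory factor, encoded by Mif, is a cytokine that most cells store and release, and it signals through the receptor CD74 with CD44, CXCR2, CXCR4 or ACKR3 as partners. Ddt encodes D-dopachrome tautomerase, a homologue of MIF that binds the same receptor. In the heart both proteins are known from work on ischaemic injury and AMPK signalling. The Gstt genes encode theta-class glutathione transferases, enzymes that couple glutathione to reactive compounds.

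Summed counts ran from 31011055 to 40073801 per library. Arid1a stood at 128 to 148 CPM (counts per 1000000 counts of the scaled library total) in the controls and 100.3 to 113 CPM in cKO, without overlap. The summed level of 6 cardiomyocyte markers was 40270 to 48230 CPM in the controls and 37360 to 41470 CPM in cKO, and none of these markers was at 0. The libraries also fell into sets by Rps3a3, a ribosomal protein gene copy, which was under 1 CPM in 2 controls (replicates 1 and 2) and in 3 of the cKO libraries (replicates 1, 2 and 3; Rps3a3-low). It was near 100 CPM in the other 3 controls and in cKO replicate 4 (Rps3a3-high). Values within each set are given for the tested cluster genes and for some of the other genes, where one group of the Rps3a3-high set is a single library. The study counts its n as biological replicates, here hearts, while the labels do not tie a library to an animal, and p-values measure the spread between these samples.

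On GRCm38, the assembly that mm10 denotes, the 8 genes spanned 494.8 kb. In the order of the chromosome they were Upb1 (75401115 to 75441679, plus strand), Lrrc75b (75550123 to 75560330, minus), Ddt (75771230 to 75773414, minus), Gstt3 (75774115 to 75781414, minus), Gstt1 (75783813 to 75798584, minus), Gstt2 (75831114 to 75837424, minus), Mif (75859353 to 75860240, minus) and Derl3 (75893413 to 75895941, plus). Ddt and Gstt3 were 700 bases apart and Gstt3 and Gstt1 2398 bases apart, the closest pairs of the cluster. A gap of 32.5 kb separated Gstt1 from Gstt2, 21.9 kb separated Gstt2 from Mif, and 33.2 kb separated Mif from Derl3. Lrrc75b lay 210.9 kb from Ddt and Upb1 a further 108.4 kb away.

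The promoters of the cytokine pair, of Upb1 and of Gstt1 are shown because the first 3 genes stood higher in cKO and Gstt1 did not. They come from a set of RefSeq promoters on GRCm38.p6, in which 6 of the 8 genes had an entry (Mif, Ddt, Gstt1, Gstt3, Derl3 and Upb1). Whether RefSeq itself holds Gstt2 and Lrrc75b was not looked up. Each run holds bases before the RefSeq start site, read 5′ to 3′ on the gene's own strand. The Ddt run stops at the first base of its GENCODE exon, so the bases next to the RefSeq start were not searched. For Upb1 and Gstt1 this start lies inside the wider GENCODE bounds given above, so these runs fall within the annotated gene, upstream of the RefSeq start alone. These are chr10:75860278-75860527 for Mif (minus strand), chr10:75773415-75773624 for Ddt (minus), chr10:75406661-75406910 for Upb1 (plus) and chr10:75797732-75797981 for Gstt1 (minus). Capitals mark matches, on either strand, to 5 motifs spelled out in the next paragraph.
Mif: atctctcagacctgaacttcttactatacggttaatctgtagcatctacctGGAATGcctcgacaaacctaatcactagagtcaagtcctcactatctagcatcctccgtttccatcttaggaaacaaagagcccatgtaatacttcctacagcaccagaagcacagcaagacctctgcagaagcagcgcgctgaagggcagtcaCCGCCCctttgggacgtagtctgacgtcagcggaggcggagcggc
Ddt: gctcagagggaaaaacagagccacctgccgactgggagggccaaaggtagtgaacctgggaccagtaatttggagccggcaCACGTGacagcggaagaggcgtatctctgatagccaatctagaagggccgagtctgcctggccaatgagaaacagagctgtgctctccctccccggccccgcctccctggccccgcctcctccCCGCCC
Upb1: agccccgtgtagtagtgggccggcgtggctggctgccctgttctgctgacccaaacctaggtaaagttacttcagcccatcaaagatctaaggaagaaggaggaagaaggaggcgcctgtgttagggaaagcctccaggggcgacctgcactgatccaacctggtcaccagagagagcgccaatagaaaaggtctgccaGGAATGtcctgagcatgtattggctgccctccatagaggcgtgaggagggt
Gstt1: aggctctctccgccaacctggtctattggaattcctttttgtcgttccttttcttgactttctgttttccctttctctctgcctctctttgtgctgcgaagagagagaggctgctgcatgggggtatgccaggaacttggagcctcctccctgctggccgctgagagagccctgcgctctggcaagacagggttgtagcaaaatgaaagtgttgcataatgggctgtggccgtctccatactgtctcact

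The motifs searched were the GC box GGGCGG, the antioxidant response element core TGACNNNGC, the TEAD site CATTCC, the ERR site AAGGTCA and the hypoxia response core ACGTG. The Mif promoter held 1 GC box and 1 TEAD site, both on the opposite strand. The Ddt promoter held 1 GC box and 2 matches to ACGTG, which overlap on opposite strands. In Upb1 there was 1 TEAD site, and in Gstt1 and Gstt3 there was no match to any of the 5. The Derl3 promoter, like that of Ddt, held 1 GC box and 2 overlapping matches to ACGTG. Among 27025 mouse promoters of 250 bases, 32.9% held a GC box, 12.6% a TEAD site, 16.6% the hypoxia response core, 10.2% the antioxidant response element core and 4.05% the ERR site. The Ddt run is shorter, at 210 bases, than the promoters behind these shares. Among Mif, Ddt and Upb1, the GC box was shared by Mif and Ddt and the TEAD site by Mif and Upb1, and no motif was found in all 3. GC content was 51.2% over the Mif promoter, 62.9% over that of Ddt, 56.4% over that of Upb1 and 52.8% over that of Gstt1.

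Of the 7 genes that passed the filter, 4 were higher in cKO and 1 lower by the criteria applied to all genes, an adjusted p under 0.05 by edgeR's quasi-likelihood test and a fold change over 1.5. Across all 15318 genes 4.01% met these criteria as higher, 2.72% as lower and 6.72% in either direction. The same 4 genes (Upb1, Ddt, Gstt2 and Mif) had every cKO library above every control, against 8.16% of all genes, and Lrrc75b had every cKO library lower, against 8.58%. Gstt3, Gstt1 and Derl3 had overlapping groups. At an adjusted p under 0.05 alone, 8.25% of all genes were higher and 8.03% lower. In the Rps3a3-low libraries taken alone (2 controls, 3 cKO), 0 of the 7 met both criteria, and with a replicate block 3 did (Upb1, Ddt and Gstt2), while Mif stood at a log2 difference of 1.38. Since the cluster was chosen on this comparison, nothing is read from these shares.

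**Figure D1:**
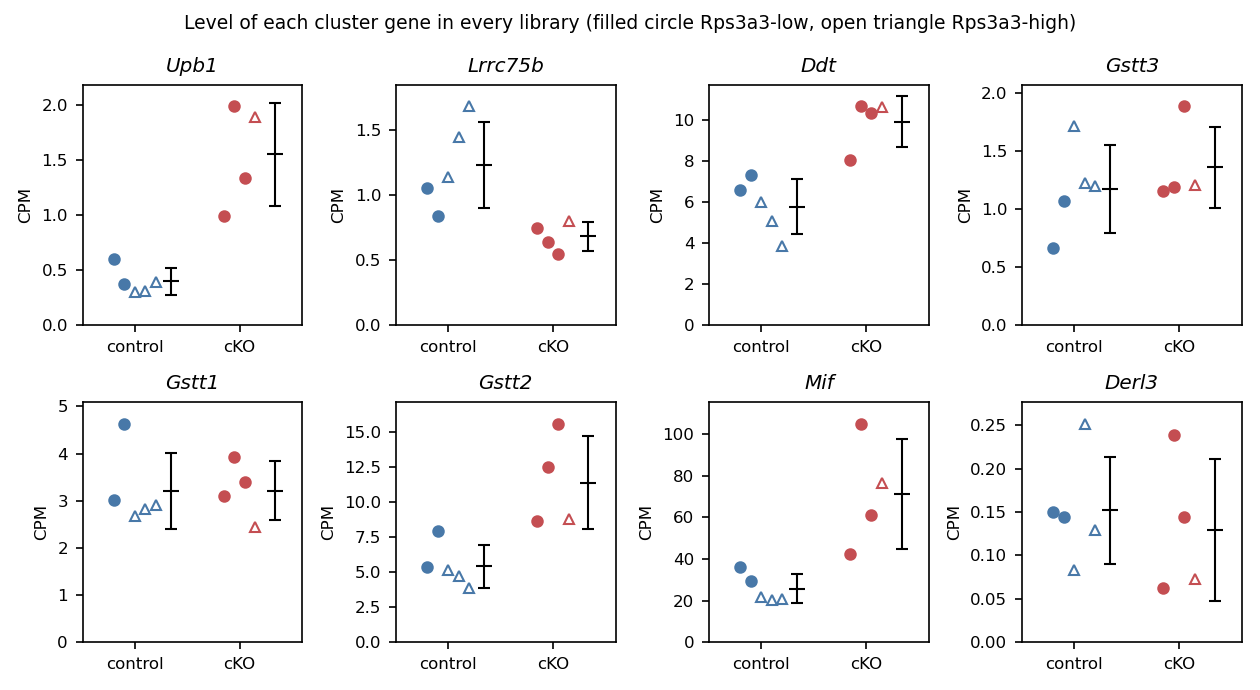
Level of each of the 8 cluster genes in CPM (vertical axes, each from 0) in the 5 control and 4 cKO libraries. Each point is 1 library, filled circles are Rps3a3-low and open triangles Rps3a3-high libraries, and bars show the group mean ± SD. The groups are apart for Upb1, Lrrc75b, Ddt, Gstt2 and Mif and overlap for Gstt3, Gstt1 and Derl3.

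Mif was the most abundant gene of the cluster and was higher in every cKO library than in any control. In control replicates 1 to 5 it stood at 36.3, 29.3, 21.7, 20.5 and 20.8 CPM. In cKO replicates 1 to 4 it stood at 42.5, 105.0, 61.3 and 76.5 CPM. The lowest cKO library, replicate 1, was close to the highest control, also replicate 1, whereas cKO replicate 2 was well above all other libraries. The means were 25.7 ± 6.94 CPM (SD, n = 5) and 71.3 ± 26.4 CPM (SD, n = 4), a 2.78-fold difference. On the log2 scale this was 1.47 ± 0.28 (SE; 95% interval 0.85 to 2.10). Split by library set, it was 1.09 among the Rps3a3-low and 1.87 among the Rps3a3-high libraries.

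Mif is a short gene with many processed copies in the genome, and this bears on how well its reads can be placed. Of the 742 stretches of 75 bases (the read length) in its transcripts, 284 (38.3%) also occurred in other annotated genes. The 6 genes of near-identical sequence that were in the table summed to 9 to 31 counts per library, while Mif itself had 642 to 1206 counts in the controls and 1368 to 3960 in cKO. How reads that match several places were counted is not given in the sources used here. The low counts of the copies therefore do not show how many Mif reads were lost.

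Ddt followed Mif in direction, with a smaller difference. Its level was 6.62, 7.33, 6.01, 5.10 and 3.88 CPM in control replicates 1 to 5. In cKO replicates 1 to 4 it was 8.06, 10.7, 10.4 and 10.6 CPM. Of these, replicate 1 stood below the other 3, which were close together, and control replicate 5 was the lowest library. The means of 5.79 ± 1.34 CPM (SD, n = 5) and 9.94 ± 1.26 CPM (SD, n = 4) differed 1.72-fold. On the log2 scale the difference was 0.78 ± 0.17 (SE; 95% interval 0.41 to 1.15), and split by set it was 0.48 (Rps3a3-low) and 1.09 (Rps3a3-high). The gene model Gm20441 overlaps 30.0% of the exon bases of Ddt and 13.6% of those of Gstt3 on the same strand, and Gm20441 itself had 0 counts in all 9 libraries. How the counting treated bases shared by 2 genes is not given in the sources used here.

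Gstt2, which lies next to Mif, was the one glutathione transferase of the cluster whose groups were apart. The controls, replicates 1 to 5, read 5.36, 7.91, 5.15, 4.75 and 3.85 CPM. The cKO libraries, replicates 1 to 4, read 8.62, 12.5, 15.6 and 8.79 CPM. Control replicate 2 came close to cKO replicates 1 and 4, and cKO replicate 3 was the highest. The means were 5.40 ± 1.51 CPM (SD, n = 5) and 11.4 ± 3.31 CPM (SD, n = 4), or 2.10-fold. The log2 difference was 1.07 ± 0.22 (SE; 95% interval 0.58 to 1.56), with 0.88 and 0.94 within the Rps3a3-low and Rps3a3-high libraries. Stretches at least 90% identical over 75 bases were found in 188 other annotated genes, of which 161 were in the table and summed to 191658 to 245484 counts per library. These are counts of the whole genes, and the part that fell in the similar stretches was not measured. No stretch of 75 bases was shared exactly.

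Gstt1 and Gstt3, which encode the other theta-class enzymes measured here, lie between Ddt and Gstt2. The controls, in order of replicate number, had 3.01, 4.63, 2.69, 2.83 and 2.91 CPM of Gstt1, and the cKO libraries had 3.11, 3.92, 3.39 and 2.44 CPM. Control replicate 2 was the highest and cKO replicate 4 the lowest, and the groups overlapped. The log2 difference was 0.00 ± 0.20 (SE; 95% interval -0.44 to 0.44). Split by set it was -0.14 (Rps3a3-low) and -0.20 (Rps3a3-high), and with the set as a term it was -0.16. Gstt3 ranged from 0.662 to 1.72 CPM in the controls (median 1.20) and from 1.15 to 1.88 CPM in cKO. Its log2 difference was 0.21 ± 0.27 (SE; 95% interval -0.39 to 0.80). For Gstt3 the library sets went opposite ways, at 0.70 (Rps3a3-low) and -0.19 (Rps3a3-high).

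Upb1 encodes beta-ureidopropionase, the last enzyme of pyrimidine degradation, and showed the largest fold difference of the cluster, from the lowest level per exon length. The controls had 20, 13, 11, 10 and 12 counts in replicates 1 to 5, or 0.602, 0.377, 0.305, 0.315 and 0.388 CPM. In cKO replicates 1 to 4 there were 32, 75, 46 and 78 counts, or 0.995, 1.99, 1.33 and 1.89 CPM. Control replicate 1 was the highest control, and every cKO library was above it. The means of 0.397 ± 0.120 CPM (SD, n = 5) and 1.55 ± 0.470 CPM (SD, n = 4) differed 3.90-fold, or by 1.96 ± 0.29 on the log2 scale (SE; 95% interval 1.33 to 2.60). Within the library sets the log2 difference was 1.56 (Rps3a3-low) and 2.49 (Rps3a3-high). Upb1 lies within the bounds of Gucd1, on the opposite strand, without shared exon bases, and Gucd1 differed by -0.08 ± 0.06 (SE) on the log2 scale. Of the 75-base stretches of Upb1, 0.5% also occurred in other annotated genes. Stretches at least 90% identical over 75 bases were found in 79 other genes, of which 50 were in the table and summed to 114673 to 153178 counts per library. Again these are counts of whole genes, not of the similar stretches.

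Lrrc75b, a leucine-rich repeat gene between Upb1 and Ddt, was the one gene of the cluster that stood lower in cKO. Control replicates 1 to 5 had 1.05, 0.840, 1.14, 1.45 and 1.68 CPM, and cKO replicates 1 to 4 had 0.747, 0.636, 0.550 and 0.799 CPM. Control replicate 2 and cKO replicate 4 were nearly level, at the boundary between the groups. The log2 difference was -0.84 ± 0.26 (SE; 95% interval -1.40 to -0.28), and split by set it was -0.55 (Rps3a3-low) and -0.83 (Rps3a3-high). When 1 library at a time was left out, Lrrc75b met both criteria without control replicate 1 or 2, and did not without any 1 of the other 7 libraries. It also did not with the library set or Xist as a term, with a replicate block, or with no low-count filter.

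Derl3 encodes a member of the derlin family, which serves the export of misfolded proteins from the endoplasmic reticulum. It had 5, 5, 3, 8 and 4 counts in control replicates 1 to 5 and 2, 9, 5 and 3 counts in cKO replicates 1 to 4. It fell below the low-count filter, so its difference between the groups was not tested.

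The genes varied together among the cKO libraries in part. Replicate 1 was the lowest cKO library for Mif, Ddt, Gstt2, Gstt3 and Upb1, and replicate 2 the highest for Mif, Ddt, Gstt1 and Upb1, while replicate 3 was the highest for Gstt2 and Gstt3. Among the controls, replicate 2 was the highest for Ddt, Gstt1 and Gstt2 and replicate 1 for Mif and Upb1. With genotype in the model, the log2 difference between the library sets (Rps3a3-high minus Rps3a3-low, ± SE) was -0.47 ± 0.17 for Gstt1, -0.51 ± 0.19 for Gstt2 and 0.48 ± 0.24 for Lrrc75b. It was smaller relative to its error for Ddt (-0.23 ± 0.17), Mif (-0.32 ± 0.29), Gstt3 (0.32 ± 0.30) and Upb1 (-0.06 ± 0.32).

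Scaled by exon length, as CPM per kb of annotated exon, the controls ranked the genes from Mif at 34.5 ± 9.32 (SD, n = 5) through Ddt at 7.49 ± 1.74, Gstt1 at 2.10 ± 0.525 and Gstt2 at 1.30 ± 0.365 to Gstt3 at 0.306 ± 0.098, Lrrc75b at 0.268 ± 0.072, Derl3 at 0.0762 ± 0.031 and Upb1 at 0.0585 ± 0.018. Mif, Ddt and the Gstt1 and Gstt2 pair were separated from each other in every control library, whereas the ranges of Gstt1 and Gstt2, of Gstt3 and Lrrc75b, and of Derl3 and Upb1 overlapped. In cKO the length-scaled level of Mif was 95.8 ± 35.4 (SD, n = 4) and that of Ddt 12.9 ± 1.63. There Gstt2, at 2.73 ± 0.798, stood above Gstt1, at 2.11 ± 0.403, with overlapping ranges. Upb1 moved from the lowest rank to above Lrrc75b, at 0.228 ± 0.069 against 0.148 ± 0.024, again with overlapping ranges.

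**Figure D2:**
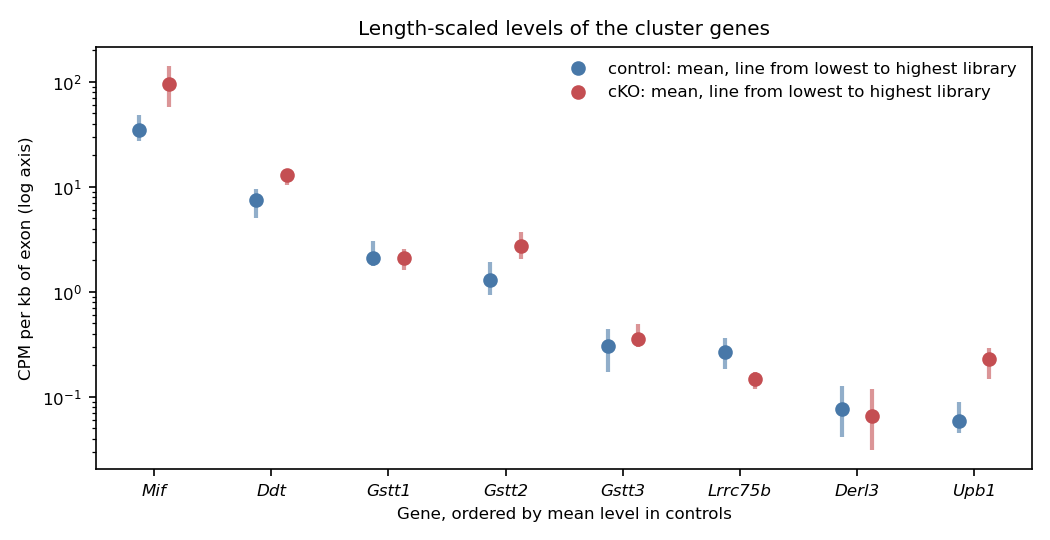
Length-scaled level (CPM per kb of exon, log axis) of the 8 cluster genes in order of their mean in the 5 controls. Points are group means and lines run from the lowest to the highest library. Mif and Ddt lead in both groups, and Gstt2 passes Gstt1 in cKO.

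Whether genes next to each other differ together was then looked at along the chromosome. Between Ddt and Mif there were 5 tested genes in a row, and 3 of them (Ddt, Gstt2 and Mif) were higher in cKO while the Gstt3 and Gstt1 groups overlapped. Gstt2 and Mif were the one pair of consecutive tested genes in the cluster that were both higher. Over the tested genes with a position in the annotation, 109 of 609 higher in cKO by the same criteria (17.9%) had an adjacent tested gene that was also higher, and 54 of 413 lower genes (13.1%) had an adjacent lower one. Left out of these counts were tested genes without a position, which is why they fall short of the 614 higher and 416 lower genes in all. Runs of 5 consecutive tested genes with 3 or more higher numbered 42 of 15086 (0.278%). These shares describe the table, and runs that overlap share genes. The run from Ddt to Mif has ends that were already known to be higher, so it cannot be compared with these runs.

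Within 500 kb of the cluster on either side, 36 other annotated genes were in the table and 18 passed the filter. By edgeR's quasi-likelihood test 0 of the 18 met both criteria, against 6.72% of all genes, 2 passed the adjusted p alone (11.1%, against 16.3% of all genes), and 3 had an unadjusted p under 0.05, against 4543 of the 15318 genes. DESeq2 gave 0 that met both criteria, and with a replicate block or without control replicate 1, control replicate 5 or cKO replicate 4 there was 1. The median log2 difference over the 18 was -0.02, with 8 genes higher and 10 lower, against a median of 0.01 over all genes.

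The neighbours that passed were Bcr and Susd2, and both rose. Bcr went from a control mean of 17.6 ± 1.40 CPM (SD, n = 5) to a cKO mean of 25.7 ± 1.25 CPM (SD, n = 4), with a log2 change of 0.55 ± 0.08 (SE; adjusted p = 0.000594 by edgeR). Susd2, which encodes a membrane protein with a sushi domain and lies between Lrrc75b and Ddt, went from a control mean of 4.81 ± 0.448 CPM (SD, n = 5) to a cKO mean of 7.04 ± 0.854 CPM (SD, n = 4), with a log2 change of 0.55 ± 0.13 (SE; adjusted p = 0.0106 by edgeR). Neither overlapped between the groups, and each was under the 1.5-fold criterion. Within the Rps3a3-low and Rps3a3-high libraries the log2 differences were 0.54 and 0.55 for Bcr and 0.50 and 0.43 for Susd2.

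Cabin1, Snrpd3 and Smarcb1, which lie next to named genes, did not pass. Cabin1, which encodes a calcineurin-binding protein and lies inside the span beside Ddt, differed by 0.10 ± 0.10 on the log2 scale (SE; 95% interval -0.12 to 0.33; adjusted p = 0.552 by edgeR). On the far side of Derl3, Smarcb1, which encodes a core subunit of the SWI/SNF complex to which ARID1A belongs, differed by 0.00 ± 0.07 (SE; 95% interval -0.16 to 0.16; adjusted p = 0.987 by edgeR). Snrpd3, a splicing factor gene inside the span between Gucd1 and Lrrc75b, differed by -0.06 ± 0.07 (SE; adjusted p = 0.641 by edgeR). Ggt5, a gamma-glutamyltransferase family gene between Lrrc75b and Ddt, ranged from 10.1 to 14.5 CPM in the controls and from 10.9 to 13.1 CPM in cKO, and differed by -0.05 ± 0.12 (SE; 95% interval -0.30 to 0.20; adjusted p = 0.817 by edgeR). Gstt4 and Ggt1, also glutathione genes of the region, were at or below 0.106 and 0.121 CPM in every library and were not tested.

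**Figure D3:**
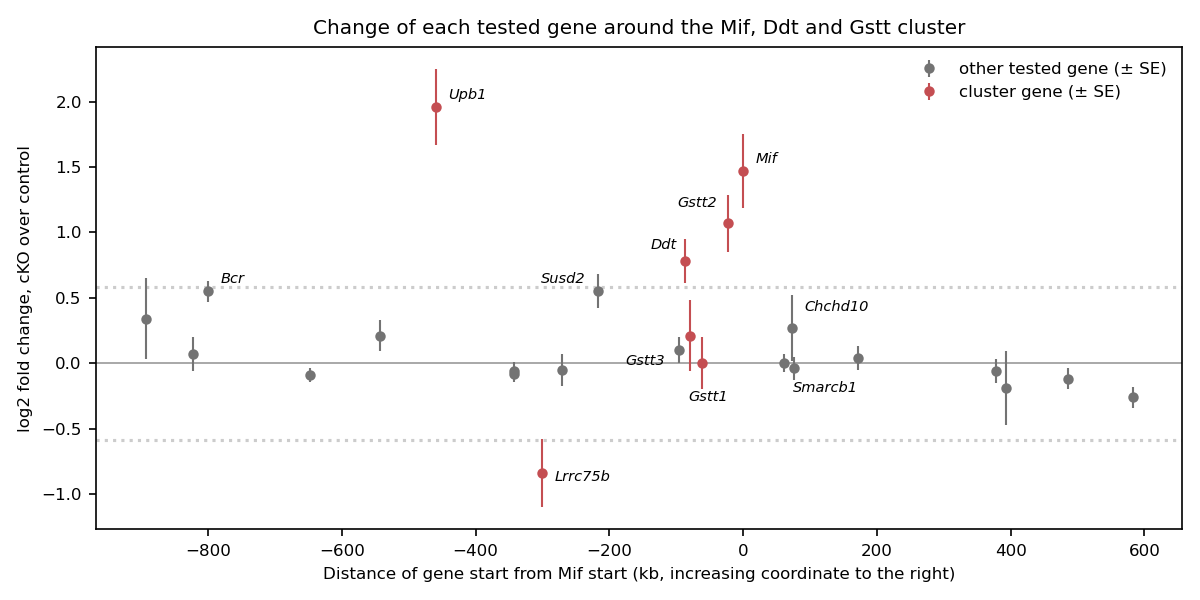
Log2 fold change, cKO over control, of the 7 tested cluster genes and the 18 other tested genes within 500 kb, against the distance of each gene's start from that of Mif (kb). Bars are ± SE and dotted lines mark a 1.5-fold difference. Upb1, Ddt, Gstt2 and Mif lie above the upper line and Lrrc75b below the lower one, with genes near 0 between them.

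Genes of the pathways to which the cluster belongs were taken from 4 lists. Of 98 genes listed, 82 were tested and 13 passed an adjusted p under 0.05, with percentages to be read against 16.3% for all genes.

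The glutathione list (enzymes that make, use and recycle glutathione) had 36 of 48 genes tested, of which 5 rose, 1 fell and 30 did not pass (16.7% passed), with a median log2 difference of 0.08. Those that rose were 3 mu-class transferases and 2 peroxidases. Gstm7 averaged 11.2 ± 1.08 CPM in the controls (SD, n = 5) and rose to 25.3 ± 1.63 CPM (SD, n = 4), with a log2 change of 1.18 ± 0.09 (SE; adjusted p = 5.47e-06 by edgeR). Gstm2 rose by 0.65 ± 0.09 (SE; adjusted p = 0.000538 by edgeR) and Gstm4 by 0.51 ± 0.09 (SE; adjusted p = 0.0024 by edgeR). Split by library set, Gstm2 differed by 0.50 (Rps3a3-low) and 0.80 (Rps3a3-high), and it did not pass among the Rps3a3-low libraries alone. Mu-class genes are close paralogues, and reads may have been split between them. Gpx4, the peroxidase that reduces lipid hydroperoxides, rose by 0.55 ± 0.09 (SE; adjusted p = 0.00136 by edgeR), and Gpx7, a peroxidase of the endoplasmic reticulum, by 0.32 ± 0.07 (SE; adjusted p = 0.00926 by edgeR). Mgst3, a membrane-bound transferase, fell by 0.31 on the log2 scale, with an SE of 0.09 (adjusted p = 0.0275 by edgeR).

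The enzymes that set the glutathione supply did not pass. Gclc and Gclm, the subunits of glutamate-cysteine ligase, differed by 0.14 and -0.12 on the log2 scale (adjusted p = 0.326 and 0.357 by edgeR). Gss, glutathione synthetase, differed by 0.20 (adjusted p = 0.115 by edgeR) and Gsr, glutathione reductase, by 0.00 (adjusted p = 0.980 by edgeR). Gstm1 and Gstp1, which encode transferases of other classes than theta, differed by 0.21 and 0.11 (adjusted p = 0.124 and 0.468 by edgeR).

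Of the receptors and partners of MIF, 10 of 11 genes were tested and 1 of the 10 passed, with a median of 0.07. The one that rose was Thbs1, which encodes the matrix protein thrombospondin 1, from a control mean of 73.7 ± 8.63 CPM (SD, n = 5) to a cKO mean of 101.7 ± 15.5 CPM (SD, n = 4), with groups that overlapped in 1 cKO library (log2 0.47 ± 0.11, SE; adjusted p = 0.0126 by edgeR). Cd74, the receptor for MIF and DDT, differed by 0.39 ± 0.30 (SE; 95% interval -0.27 to 1.06; adjusted p = 0.422 by edgeR) and ranged from 3.08 to 8.69 CPM in the controls and 4.14 to 10.4 CPM in cKO. Split by library set, Cd74 differed by 0.20 (Rps3a3-low) and -0.12 (Rps3a3-high), and by 0.08 with the set as a term. Leaving out 1 library moved Cd74 between 0.20 (without cKO replicate 3) and 0.60 (without control replicate 2). Its partners Cd44, Cxcr4, Ackr3 and Cxcr2 differed by 0.02 ± 0.08, 0.11 ± 0.15, 0.04 ± 0.09 and -0.07 ± 0.50 (SE), and none of them passed. For Cxcr4 the library sets went opposite ways, with 0.50 ± 0.14 in a fit of the Rps3a3-low libraries alone (SE; adjusted p = 0.0904 by edgeR) and -0.10 within the Rps3a3-high libraries. With the set as a term its difference was 0.27, and without control replicate 2 it was 0.00.

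Of the genes of endoplasmic-reticulum-associated degradation, the pathway of the derlins, all 30 were tested, 2 rose and 2 fell (13.3%), each by less than 1.5-fold, with a median of -0.03. Herpud1 and Herpud2, which encode scaffold proteins of the ubiquitin ligase complex, fell by 0.37 and by 0.25 (adjusted p = 0.0194 and 0.0226 by edgeR). Selenos, a selenoprotein of the same complex, rose by 0.25 and Edem1, a lectin that recognises misfolded glycoproteins, by 0.19 (adjusted p = 0.0329 and 0.0453 by edgeR). Derl1 and Derl2, the paralogues of Derl3, differed by 0.09 and -0.04, and the ligase subunits Sel1l and Syvn1 by -0.03 and 0.14, and none of these 4 genes passed.

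Of the genes of pyrimidine degradation, 6 of 9 were tested, and 1 rose and 1 fell (33.3%), with a median of -0.08. Upp1, uridine phosphorylase, which begins the route by releasing uracil, averaged 24.2 ± 2.55 CPM in the controls (SD, n = 5) and rose to 43.5 ± 6.76 CPM (SD, n = 4), with a log2 change of 0.85 ± 0.11 (SE; adjusted p = 0.000336 by edgeR). Aldh6a1, which takes the products of the route and of valine breakdown onward, fell by 0.42 on the log2 scale, with an SE of 0.11 (adjusted p = 0.0177 by edgeR). Dpyd, the rate-limiting reductase, differed by -0.12 (adjusted p = 0.722 by edgeR), and Dpys, the step before Upb1, was too low to be tested.

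**Figure D4:**
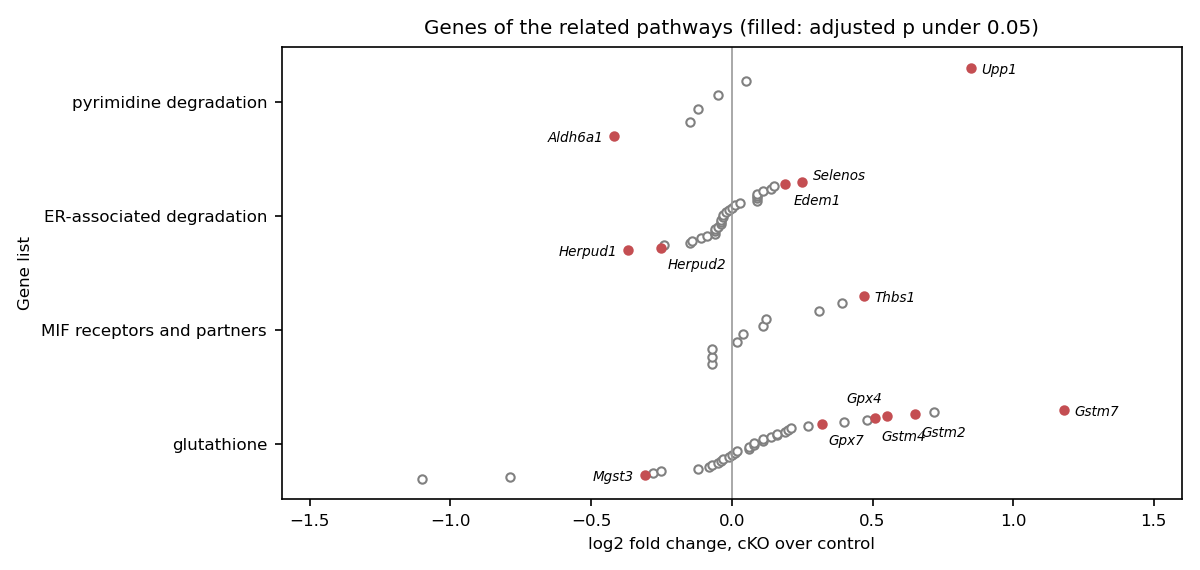
Log2 fold change, cKO over control, of the 82 tested genes in the 4 pathway lists (vertical axis, 1 band per list, genes in order of their value). Filled points passed an adjusted p under 0.05 by edgeR and are named. The 13 that passed lie on both sides of 0, with Gstm7 and Upp1 farthest to the right among them.

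Mif, the Gstt genes and Upb1 are also expressed by cells other than cardiomyocytes, and in tissue libraries fewer cells of a type and less RNA per cell cannot be told apart. The sum of 7 macrophage markers was 84.2 to 138.0 CPM in the controls and 92.5 to 161.5 CPM in cKO. The sum of 5 erythroid markers was 151.9 to 424.6 and 251.0 to 492.8 CPM, with the highest value in cKO replicate 2, the library highest for Mif. The next highest library for Mif, cKO replicate 4, had 251.0 CPM of these markers. Control replicate 2 had 424.6 CPM of them and was below every cKO library for Mif. The sum of 6 fibroblast markers was 5567 to 6879 and 6732 to 7993 CPM, and 2 of the 6 rose. The sum of 4 atrial markers was 89.0 to 166.3 and 151.3 to 216.8 CPM, and 1 of the 4 rose. The sum of 3 epicardial markers was 21.72 to 67.03 and 19.96 to 29.83 CPM, and 1 of the 3 fell. Endothelial markers summed to 1427 to 1561 and 1394 to 1523 CPM, and mural markers to 1679 to 1796 and 1600 to 1985 CPM. Lymphocyte markers summed to 3.68 to 6.51 and 3.61 to 5.85 CPM. No tested marker of endothelium, mural cells or lymphocytes passed an adjusted p under 0.05 by edgeR. For 5 hepatocyte markers, a cell type rich in Upb1 and the Gstt enzymes, the sum was 0.629 to 3.71 and 0.901 to 1.62 CPM, with the highest value in a control. None of these markers was at 0 in all libraries, and their part in the differences of the cluster was not tested.

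The genes outside the region whose log2 CPM followed these patterns most closely over the 9 libraries were found by Pearson's r, as a description. For Upb1, with the largest log2 difference, they were Arhgap23 (r = 0.996), St3gal2 (r = 0.992) and Col9a2 (r = 0.992), with log2 differences of 0.68, 0.72 and 2.19. For Mif, the most abundant member per length, they were Mob3a (r = 0.989), Cnn2 (r = 0.989) and Efhd2 (r = 0.988), with log2 differences of 0.38, 0.58 and 0.75. The 9 libraries share the difference between the groups, which enters each r.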

How the data were processed

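The authors deposited raw read counts per gene as 1 table with a column per library, and the submitters' processing notes name STAR 2.4.2a, HTSeq 0.6.1 and mm10. The gene annotation and strand setting of the counting are not given in the sources used here, so overlapping genes and near-identical copies are uncertain. The table held 0 other sample columns. Symbols and coordinates came from GENCODE M21, which matched 36345 of 38293 identifiers (99.82% of counts). Counts were tested in R 4.3.3 with edgeR 4.0.16 (filterByExpr with a minimum count of 10, TMM scaling, quasi-likelihood test, genotype as the only term), two-sided, with Benjamini-Hochberg adjustment over 15318 genes, and the code was tested on simulated data. The study's methods name 4 controls and a figure legend gives 5, and all 5 labelled libraries were used. CPM are counts per 1000000 of the TMM-scaled total. SE were derived from each log2 fold change and the F value of its test. Shared 75-base stretches were counted in GENCODE transcripts.

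The members and lists were chosen with earlier results of these data known. Named were all members, the neighbours within 500 kb that passed or adjoined a member, up to 8 genes per list that met both criteria with its defining genes, and the 3 genes most correlated with 2 members. Passing list genes under 1.5-fold, Ggt5 and Cxcr2 were added after their values were seen. Alternatives were DESeq2 1.42.0, RLE and upper-quartile scaling, other filters, thresholds and library subsets, a replicate block, the Rps3a3 set or Xist as a term and, chosen after seeing the data, removal of GC content and length trends. The total counts of 31011055 to 40073801 per library limit the precision of genes under about 10 counts.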

Additional observations from a re-analysis of the deposited data

Results flagged for a closer look

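Of 64 groups of libraries checked among the cluster genes and the named neighbours and pathway genes, 5 held a library whose gap to its nearest fellow, as a share of the group's range, exceeded Dixon's 95% critical value, where chance gives about 1 in 20, or 3.2. Upb1 in control replicate 1 stood above the other controls at 0.602 CPM. Ddt in cKO replicate 1 stood below the other cKO libraries at 8.06 CPM. Gstt3 in cKO replicate 3 stood above the rest of its group at 1.88 CPM, and without that library its log2 difference was 0.01. Gstt1 in control replicate 2 stood above the other controls at 4.63 CPM, and without that library its log2 difference was 0.17. Gucd1, within whose bounds Upb1 lies, stood apart in cKO replicate 2 at 60.8 CPM.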

How the results depend on the processing

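Over up to 19 alternatives the log2 differences of Mif (1.09 to 1.65), Gstt2 (0.88 to 1.25), Ddt (0.48 to 0.88), Upb1 (1.56 to 2.16) and Lrrc75b (-0.95 to -0.55) kept their direction. The range was 0.01 to 0.70 for Gstt3 and -0.16 to 0.17 for Gstt1. Among the Rps3a3-low libraries alone the difference was 0.48 for Ddt and 0.70 for Gstt3, 0 members met both criteria in place of 5, and 620 of all genes did in place of 1030. Pathway genes that passed then numbered 5 in place of 13, Susd2 (0.50) and Gstm2 (0.50) no longer passed, and signs turned for Cabin1 (-0.09), Gclm (0.05), Derl2 (0.04) and Syvn1 (-0.01). A filter at a mean of 1 CPM left 3 members, by its construction without those of low level, and leaving out 1 library left 4 to 5. At an adjusted p under 0.01, 6 pathway genes passed, and without 1 library 9 to 13. Of the 18 neighbours, 2 passed with no fold threshold, and 0 to 1 met both criteria without 1 library (1 without control replicate 1, control replicate 5 or cKO replicate 4). Without 1 library Cd44 ranged from -0.05 to 0.08, Ackr3 from -0.04 to 0.12 and Dpyd from -0.27 to 0.01, with signs turned by leaving out cKO replicate 3 (Cd44, Ackr3) or 2 (Dpyd). Signs also turned for Ackr3 with the library set as a term (-0.02) and, once trends with GC content and length were removed, for Gstp1 (-0.02) and Derl2 (0.05). Gstm1 passed without cKO replicate 4 (0.30). The cause of these shifts was not tested. With the replicate number as a block, 3 members and 1 neighbour (Bcr) met both criteria; same-numbered libraries correlated at 0.023, 0.036, 0.011 and 0.232, which does not show pairing, and no cKO library correlated best with the control of its own number (cKO replicates 2, 3 and 4 reached 0.405, 0.427 and 0.351 with control replicates 1, 2 and 3). Counts of 2 to 9 for Derl3 and 10 to 20 for Upb1 in the controls limit these genes.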

Other observations

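Chchd10, which encodes a mitochondrial protein and lies beyond Smarcb1, was the neighbour with the widest spread at a high level, and was singled out after its values were seen. The controls, in order of replicate number, had 221.8, 186.9, 139.4, 127.2 and 126.6 CPM, and the cKO libraries had 154.1, 293.9, 166.5 and 158.8 CPM. The groups overlapped, and cKO replicate 2, the highest library for Mif, was also the highest for Chchd10. Chchd10 also differed between the library sets, by -0.53 ± 0.20 (SE; Rps3a3-high minus Rps3a3-low, log2, with genotype in the model), and the difference between the groups split by set was 0.00 (Rps3a3-low) and 0.28 (Rps3a3-high). The log2 difference was 0.27 ± 0.25 (SE; 95% interval -0.30 to 0.84; adjusted p = 0.521 by edgeR).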
